A study of Mus musculus with 2 samples.

Results

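The ATP-binding cassette (ABC) transporter genes were described by the binding of MAFK near their transcription start sites (TSSs). Members were the protein-coding genes of GENCODE vM21 whose symbol is Abca to Abcg followed by a number, and 50 of 21938 protein-coding genes met this rule. They fell into 16 Abca, 10 Abcb, 10 Abcc, 4 Abcd, 1 Abce, 3 Abcf and 6 Abcg genes. MAFK was mapped by chromatin immunoprecipitation with sequencing (ChIP-seq) in ES-E14, a line of male mouse embryonic stem cells of the 129/Ola strain, in 1 group of 2 biological replicates for which no treatment is named. Since both replicates carry 1 biosample label, their differences may hold technical variation alone. The authors' optimal list held 16865 regions, of which 16836 were on the assembled chromosomes. A gene was counted when the summit of a region lay within 10 kb of the start of any of its transcripts. The files hold regions and not reads, so depth is unknown, and embryonic stem cell identity was not checked because binding regions do not measure marker expression.

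ABC proteins use ATP to move substrates across membranes. The Abca proteins mostly handle lipids, and the Abcb group holds the P-glycoproteins, bile exporters and several organelle transporters. The Abcc group includes the multidrug resistance proteins (MRPs), which export glutathione, glucuronide and sulfate conjugates, and the sulfonylurea receptors. Abcd proteins serve peroxisomes and lysosomes, Abcg proteins move sterols and drugs, and Abce and Abcf proteins lack membrane spans and act in translation. MAFK is a small MAF factor without a transactivation domain of its own. It pairs with CNC factors such as NRF2 or BACH1 on antioxidant response elements (AREs), and several MRP genes are known targets of NRF2 in other tissues.

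MAFK summits were found near 17 of the 50 ABC genes (34.0%, 95% Wilson interval 22.4 to 47.8, counting error only), against 26.9% of all protein-coding genes. The background lay inside the interval of the ABC share. ABC genes had more annotated starts than other genes, with a median of 5 against 3. The share of all genes with a nearby summit went from 14.4% at 1 TSS to 22.3% at 2 to 4, 37.4% at 5 to 9 and 48.9% at 10 or more. Applied to the number of TSSs of each ABC gene, these shares gave 15.5 genes, close to the 17 seen. When only the 5′ end of each gene record counted, 10 ABC genes (20%) had a summit, beside 20.1% of all genes. The list of replicate 1 had a summit near 10 ABC genes (20%, background 13.7%) and that of replicate 2 near 12 (24.0%, background 17.4%), a mean of 22.0% ± 2.83 (SD, n = 2). The 10 genes of replicate 1 were all among the 12 of replicate 2, and all 12 were among the 17. With the conservative list 18 ABC genes had a summit (background 25.8%), with the strongest 50% of regions 11 (background 15.1%), and within 50 kb 32 (background 59.3%). No test of a gene set was made.

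**Figure D1:**
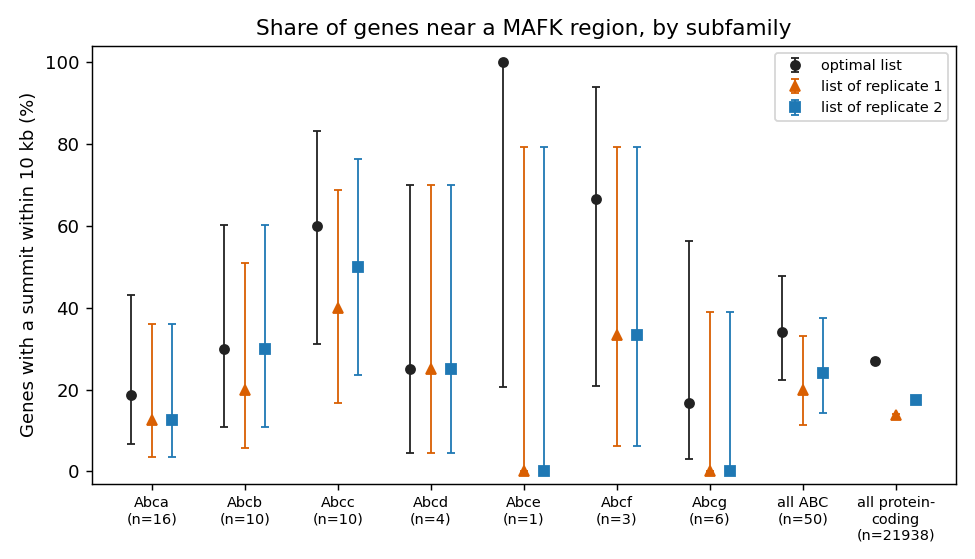
Percent of genes with a MAFK summit within 10 kb of a TSS, for each ABC subfamily, all 50 ABC genes and all protein-coding genes; circles are the optimal list, triangles and squares the lists of replicates 1 and 2, and bars 95% Wilson intervals. Abcc stands at 60.0% and Abca at 18.8% in the optimal list, with wide intervals in every subfamily.

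Within 10 kb of a TSS, Abcc was the subfamily with the highest number of genes near a summit, though not within 50 kb (8 Abca and 7 Abcc genes) or with the gene record included (6 of each). Summits lay near 6 of 10 Abcc genes (60.0%, Wilson interval 31.3 to 83.2), namely Abcc1, Abcc2, Abcc3, Abcc4, Abcc5 and Abcc12. The Abca share was 3 of 16 (18.8%, 6.59 to 43.0), Abcb 3 of 10 (30%, 10.8 to 60.3), Abcd 1 of 4, Abcf 2 of 3 and Abcg 1 of 6, and Abce1 itself was near a summit. These intervals overlap, and the difference between subfamilies was not tested. With the TSS numbers of the Abcc genes the background shares gave 3.67 genes, against the 6 seen, and for Abca 4.51 against 3. In the replicates' own lists, 4 and 5 Abcc genes had a summit, and by 5′ ends alone 4. The median distance from an Abcc gene to its nearest summit was 5381.5 bp, against 32270 bp for all ABC genes and 33761.5 bp for all protein-coding genes. With 6 of 10 Abcc genes within 10 kb, their median had to lie below 10 kb, so it is no further result. The medians were not matched for the number of starts, with a median of 5.5 for Abcc and 3 for all genes.

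**Figure D2:**
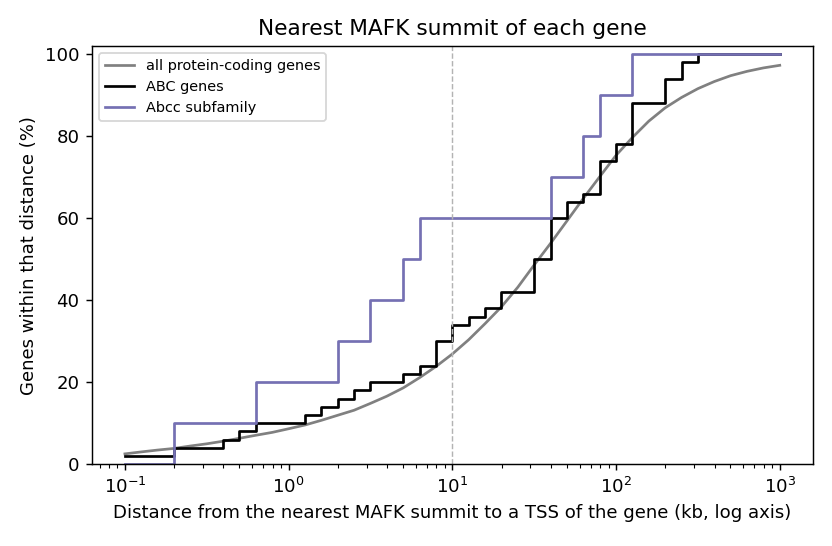
Cumulative percent of genes (vertical axis) whose nearest MAFK summit lies within the distance on the horizontal axis (kb, log scale), for all protein-coding genes, the 50 ABC genes and the 10 Abcc genes; the dashed line marks 10 kb. The ABC curve runs close to that of all genes, and the Abcc curve is at 60.0% by 10 kb.

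The 17 genes shared 25 regions, with no region counted for more than 1 ABC gene. Of these genes, 10 had 1 region, 6 had 2 and Abcc1 had 3. The signal value, a score of the authors without a stated scale, ran from 11.0 to 184 with a median of 28.3, against a median of 27.8 over all optimal regions. Taking the strongest region of each gene, the median was 43.7 for the 17 ABC genes and 31.3 for all 5898 protein-coding genes with a summit. This gap depended on the list: replicate 1's list gave medians of 27.7 for ABC and 27.3 for all genes, replicate 2's list gave 27.1 and 24.9, and over optimal regions present in both lists the ABC median was the lower one, 61.6 against 65. Within the Abcc genes it was 84.3. Of the 25 regions, 16 were within the gene's own record, 8 upstream of it and 1 past its 3′ end. No share over all optimal regions was available for these counts, nor for the intronic and intergenic counts below. By location, 7 summits were within 1 kb of a TSS of some gene (28.0%, against 15.3% of all optimal and 33.2% of the 6564 regions within 10 kb of a protein-coding TSS), 12 were intronic and 6 intergenic. By signal in the optimal list, the region of Abcf3 ranked 787, Abcc1 1016, Abcc4 1065, Abca8b 2597, Abca12 3705, Abcc2 4140 and Abcg1 4858 of 16865, after Abcc5 at 435. For 23 of 25 regions the ABC gene's own TSS was the nearest protein-coding one, with no share of other regions to set beside it. Repeat masking covered the summits of 5 of the 25 regions (20%, against 16.4% of all optimal regions).

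The windows of 50 bp on either side of the summit are shown for the 6 ABC genes of highest signal, because they carry the strongest MAFK sites of the family. They are given 5′ to 3′ on the plus strand of GRCm38 (mm10), at chr16:20371853-20371953 for Abcc5, chr16:20548184-20548284 for Abcf3, chr16:14352766-14352866 for Abcc1, chr14:118709836-118709936 for Abcc4, chr11:109991402-109991502 for Abca8b and chr1:71342358-71342458 for Abca12. Capitals mark each ARE core (TGACNNNGC or TGAGNNNGC) and each NFE2-type composite element (TGACTCAGCA or TGAGTCAGCA), on either strand; every composite element contains an ARE core.
Abcc5: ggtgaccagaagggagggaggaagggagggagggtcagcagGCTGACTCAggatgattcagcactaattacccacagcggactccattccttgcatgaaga
Abcf3: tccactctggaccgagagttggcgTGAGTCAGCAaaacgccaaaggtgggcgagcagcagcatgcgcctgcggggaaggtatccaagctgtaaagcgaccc
Abcc1: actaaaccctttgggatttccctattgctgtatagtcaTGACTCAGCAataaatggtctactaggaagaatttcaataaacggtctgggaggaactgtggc
Abcc4: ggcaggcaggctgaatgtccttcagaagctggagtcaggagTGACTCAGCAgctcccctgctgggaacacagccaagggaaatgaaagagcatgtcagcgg
Abca8b: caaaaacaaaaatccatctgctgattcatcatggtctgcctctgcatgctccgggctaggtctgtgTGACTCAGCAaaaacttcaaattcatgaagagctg
Abca12: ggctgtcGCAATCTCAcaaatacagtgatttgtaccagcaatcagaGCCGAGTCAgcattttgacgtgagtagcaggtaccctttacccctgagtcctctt

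In 4 of these 6 windows the composite element was present, with TGACTCAGCA at Abcc1, Abcc4 and Abca8b and TGAGTCAGCA at Abcf3. All 6 regions were in both replicates' lists. Of all optimal regions in both lists, 41.0% held the composite element and 73.1% an ARE core. The Abcc5 window held an ARE core on the minus strand that ended 1 bp from the summit and no full composite element, although it held one when 1 mismatch was allowed. The Abca12 window held a pair of ARE cores, 1 of which spanned the summit, and it too held a composite element when 1 mismatch was allowed. Over all 25 ABC regions, 9 held the composite element (36.0%, Wilson interval 20.2 to 55.5, against 28.2% of all optimal regions), 7 in the form TGACTCAGCA and 2 as TGAGTCAGCA. The ARE core was in 14 (56.0%, against 60.3%) and the MAF core TGCTGA, which the composite element also contains, in 16 (64.0%, against 62.8%). The AP-1 core, TGACTCA on one strand and TGAGTCA on the other, lies inside the composite element. It was in 10 (40.0%, against 37.8%), and the composite element with 1 mismatch allowed was in 11 (44.0%, against 53.1%). The composite element, ARE core and MAF core were all absent from the windows of 7 ABC regions (28.0%, against 20.9%), which says only that these letters were not found there. Regions with the ARE core had a median signal of 43.7 and those without it 25.1, beside 32.7 and 22.5 over all optimal regions.

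**Figure D3:**
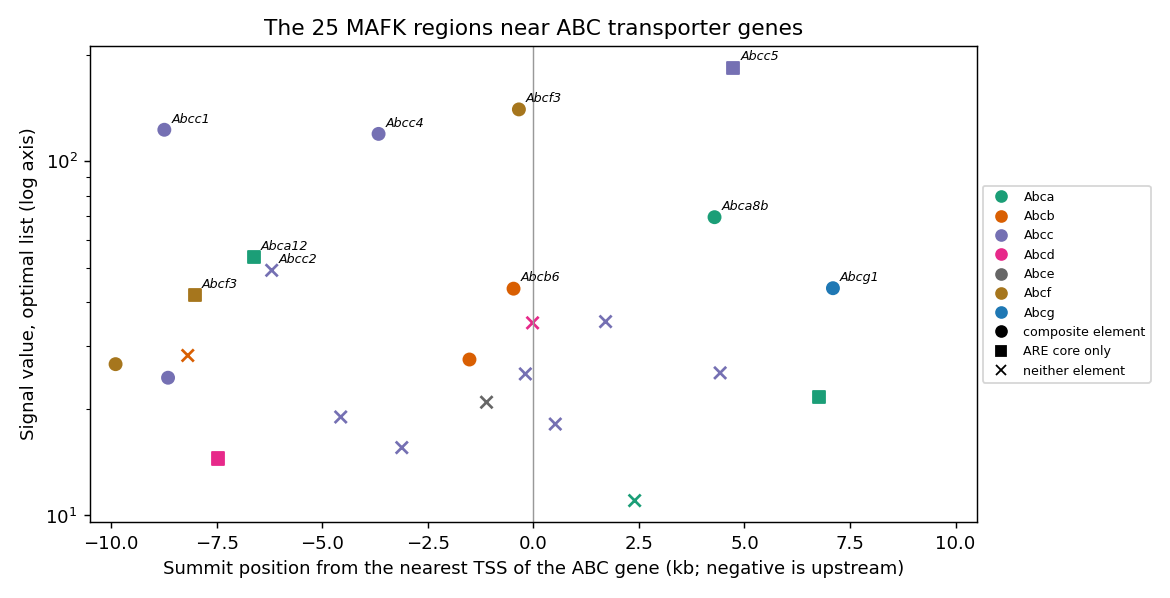
Position of each of the 25 summits from the nearest TSS of its ABC gene (kb, negative is upstream) against signal value in the optimal list (log axis), coloured by subfamily; circles hold the composite element, squares an ARE core only and crosses neither. The 6 regions of highest signal, from 53.7 to 184, all hold an ARE core and lie on both sides of the TSS. All 6 are in both replicates' lists, and 73.1% of all optimal regions in both lists hold an ARE core. The next region by signal, that of Abcc2 at 49.2, holds none of the elements searched.

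The MRP genes Abcc5, Abcc1 and Abcc4 had the strongest Abcc sites. Abcc5, which encodes MRP5, an exporter of cyclic nucleotides, had the strongest region of the family at chromosome 16, 20371779 to 20372022. Its signal was 184 in the optimal list, where it ranked 435 of 16865, beside relaxed-list values of 82.7 in replicate 1 and 103.7 in replicate 2. The summit was in an intron, 4739 bp downstream of an internal transcript start and 54491 bp from the gene's 5′ end. The second Abcc5 region was also intronic, 2118 bp inside the gene, with a signal of 35.3, replicate values of 15.3 and 17.2, and a summit in repeat-masked sequence. Both regions were in both replicates' lists, and only the stronger one held an ARE core.

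Abcc1 encodes MRP1, which exports glutathione conjugates and leukotriene C4. Its main region was intergenic, 8742 bp upstream of the gene at chromosome 16, 14352718 to 14352909, with a signal of 123 and replicate values of 74.9 and 47.7. The composite element ended 3 bp from the summit. The other 2 regions were inside the gene and weaker. One was 103879 bp from the 5′ end and 4424 bp from an internal start, with a signal of 25.3 and replicate values of 16.8 and 7.87. The other was 4723 bp from the 5′ end and 519 bp from an internal start, with a signal of 18.1 and replicate values of 11.1 and 5.82. Neither held an ARE core, and of the 2 replicates' lists each was in that of replicate 1 alone. The region of signal 18.1 was also missing from the conservative list, and repeat masking covered its summit. All 3 Abcc1 regions were higher in replicate 1, as were 7431 of the 16500 optimal regions found in both relaxed lists. Over those 16500 the median ratio of replicate 1 to replicate 2 was 0.94. The 3 regions share the same 2 libraries, and a difference of this locus between replicates was not tested.

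Abcc4 encodes MRP4, an exporter of cyclic nucleotides and prostanoids. Its main region lay 3667 bp upstream of the gene at chromosome 14, 118709805 to 118709975, with a signal of 119 and replicate values of 51.8 and 71.7. The composite element lay at the summit. A second, weak region 3117 bp upstream had a signal of 15.5, replicate values of 8.92 and 5.14 and none of the elements searched. It was in neither replicate's list and not in the conservative list.

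Abcc2, Abcc3 and Abcc12 had weaker regions. Abcc2, whose product MRP2 exports conjugates into bile, had an intronic region 50412 bp from the 5′ end, at chromosome 19, 43832456 to 43832751, and 6199 bp from an internal start. Its signal was 49.2, with 22.7 and 27.1 in the replicates, it was in both lists, and its window held none of the elements searched. Abcc3, which encodes the basolateral conjugate exporter MRP3, had 2 regions inside the gene, in neither replicate's list and both in repeat-masked sequence. The first, 190 bp from an internal start, had a signal of 25.1 and replicate values of 6.42 and 17.9. The second had a signal of 24.5, replicate values of 9.03 and 13.99, and the composite element. Both Abcc3 regions were higher in replicate 2, unlike the Abcc1 regions, and this difference was not tested. Abcc12, which encodes MRP9, had an upstream region of signal 18.97 with 6.64 and 12.5 in the replicates, in the list of replicate 2 alone. The nearest summits to Abcc10, Abcc9, Abcc6 and Abcc8 were 38021, 54942, 76414 and 124788 bp away; Abcc8 and Abcc9 encode the sulfonylurea receptors of ATP-sensitive potassium channels.

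**Figure D4:**
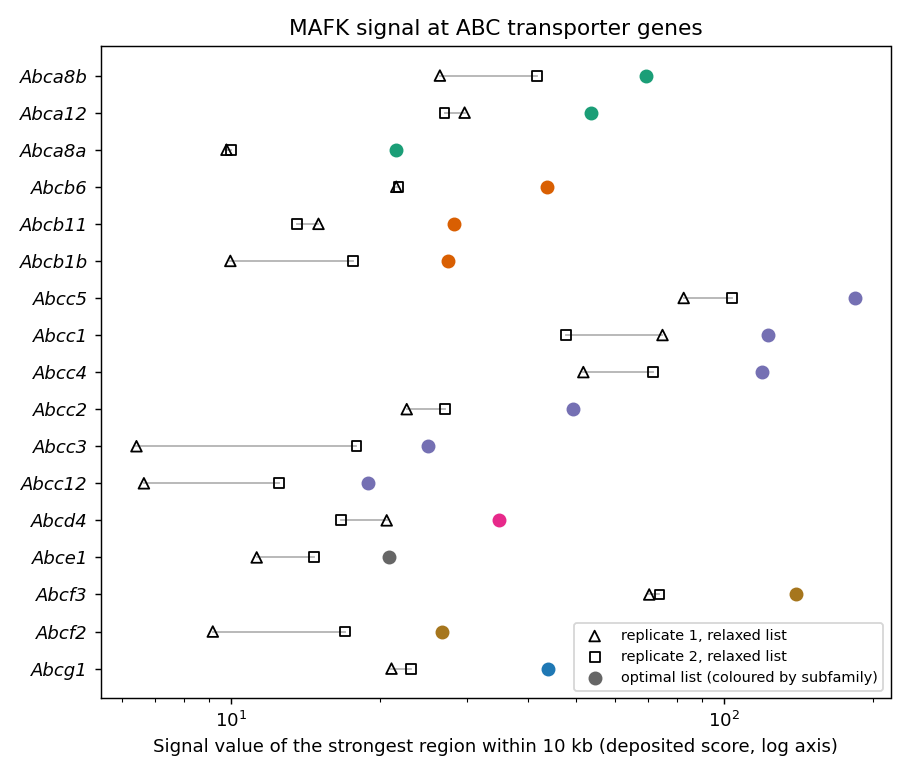
Signal value (log axis) of the strongest MAFK region within 10 kb of each of the 17 ABC genes, grouped by subfamily; filled circles are the optimal list, open triangles and squares the relaxed lists of replicates 1 and 2 at the same position. Abcc5, Abcf3, Abcc1 and Abcc4 stand above 100 in the optimal list, and Abcc3 shows the widest gap between replicates.

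Abcf and Abce genes, whose products work on ribosomes, gave 1 strong promoter site. Abcf3 had a region at chromosome 16, 20548075 to 20548339, with its summit 343 bp upstream of the TSS and inside an exon of the pseudogene Gm15760. Its signal was 140.0, with 70.4 and 73.9 in the replicates, and its composite element ended 17 bp from the summit. This was the strongest ABC region within 1 kb of a TSS. A second region counted for Abcf3 lay 64 bp from the TSS of Ap2m1, an adaptor subunit gene, with a signal of 41.8 and replicate values of 30.5 and 15.8. The single Abcf2 region had a signal of 26.7, with replicate values of 9.17 and 17.0, and was in neither replicate's list. It was likewise at another promoter, 539 bp from the TSS of Chpf2, in an exon and UTR of that gene. Its summit was 9897 bp from Abcf2. Without regions nearer to another protein-coding TSS, 16 ABC genes remained, beside 22% of all genes, and Abcf2 was the gene lost. Abce1, a ribosome recycling factor gene, had an intronic region of signal 20.9, with 11.3 and 14.7 in the replicates and in neither list. Abcc5 and Abcf3 lie close together on chromosome 16, and their 4 summits spanned 176 kb, so their sites share a neighbourhood.

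Of the Abca genes, which mostly encode lipid transporters, Abca8b, Abca12 and Abca8a had a summit, a share whose interval includes the background of 26.9%. Abca8b had an intronic region at chromosome 11, 109991304 to 109991599, 4393 bp into the gene, with a signal of 69.5 and replicate values of 26.5 and 41.6. A second Abca8b region, in neither replicate's list nor the conservative list, had the lowest signal of the 25, 11.0 (replicates 10.04 and 5.44). Its neighbour and close paralog Abca8a had 1 intronic region of 21.6, with 9.77 and 9.96 in the replicates and in neither list. Reads in duplicated genes can be hard to place, and this was not tested. Abca12, which encodes a lipid transporter of the skin barrier, had an intronic region at chromosome 1, 71342260 to 71342555, of signal 53.7 and replicate values 29.7 and 27.1, which lay 72502 bp from the 5′ end and 6622 bp from an internal start. Abca1, the exporter of cholesterol to apolipoprotein A-I, had its nearest summit 79186 bp away.

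Among Abcb genes, the sites were of moderate signal. Abcb6, a porphyrin transporter gene, had a region at chromosome 1, 75179271 to 75179566, 470 bp upstream of a start and 973 bp inside the gene record, with the composite element. Its signal was 43.7, with 21.6 and 21.8 in the replicates, and it was in both lists. Abcb11, the bile salt export pump gene, had an intronic region of 28.3 in repeat-masked sequence, with 15.02 and 13.6 in the replicates and in both lists. Abcb1b, 1 of the P-glycoprotein genes, had an intronic region of 27.6 with the composite element at the summit, replicate values of 9.95 and 17.7 and a place in the list of replicate 2 alone. Its neighbours Abcb1a and Abcb4 had no summit within 10 kb, with the nearest at 114531 and 45898 bp. Abcb8 and Abcb10, which encode transporters of the inner mitochondrial membrane, had none either, with the nearest at 180956 and 16691 bp.

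The Abcd and Abcg subfamilies had 1 gene each near a summit. Abcd4, which encodes a lysosomal transporter of vitamin B12, had a region with its summit 19 bp from an internal start, the closest of all 25 to a TSS, with a signal of 34.97 and replicate values of 20.7 and 16.7. It was in both lists and held a MAF core but no ARE core. A second Abcd4 region 7475 bp upstream had a signal of 14.5 and replicate values of 7.84 and 8.61. It was in neither replicate's list and not in the conservative list. Abcg1, an exporter of sterols to high-density lipoprotein, had a region at chromosome 17, 31117913 to 31118208, whose summit was 73 bp past the 3′ end of the gene and 7096 bp from an internal start. It had a signal of 43.8, replicate values of 21.1 and 23.1 and the composite element. Its signal was as high as that of Abcb6, yet it was in neither replicate's list. Its scaled irreproducible discovery rate (IDR) score was 336 when ranked in replicate 1 and 515 in replicate 2, and the lowest score of a listed region was 540 in each. The 2 inputs ranked against each other had signals of 14.7 and 5.17 in replicate 1 and of 15.4 and 5.23 in replicate 2. Abcg2, the breast cancer resistance protein gene, and the sterol transporter pair Abcg5 and Abcg8 had their nearest summits 30520, 36288 and 36168 bp away.

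All 25 ABC regions were found in both relaxed lists, as were 16500 of all optimal regions. The optimal list was made from the relaxed lists, which hold 264306 and 300000 regions, so this overlap adds no support. By thresholded lists, 12 (48.0%) overlapped those of both replicates, against 35.4% of all optimal regions. The list of replicate 1 covered 14 (56.0%, against 44.4%) and that of replicate 2 also 14 (56.0%, against 53%). Another 4 overlapped 1 list and 9 (36.0%, against 38.1%) neither. The 12 had signals from 28.3 to 184, the 4 from 18.1 to 27.6 and the 9 from 11.0 to 43.8, so apart from Abcg1 the strongest regions were the shared ones. Of the 12, 8 held an ARE core (66.7%) and 5 the composite element (41.7%). Among all optimal regions in both lists the shares were 73.1% and 41.0%. Of the other 13, 6 held the core (46.2%) and 4 the composite element (30.8%), against 53.2% and 21.3% of other optimal regions. Over the 25 regions Spearman's rho between the relaxed signals of the replicates was 0.72, beside 0.69 over 16500 optimal regions, given as a description of regions that share the same 2 libraries. Replicate 1 was higher at 9 of the 25, beside 7431 of the 16500 optimal regions. The ratio of replicate 1 to replicate 2 ran from 0.358 at Abcc3 to 2.13 at the Abcc1 region of signal 25.3. Over the 16500 regions it ran from 0.115 to 7.99.

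**Figure D5:**
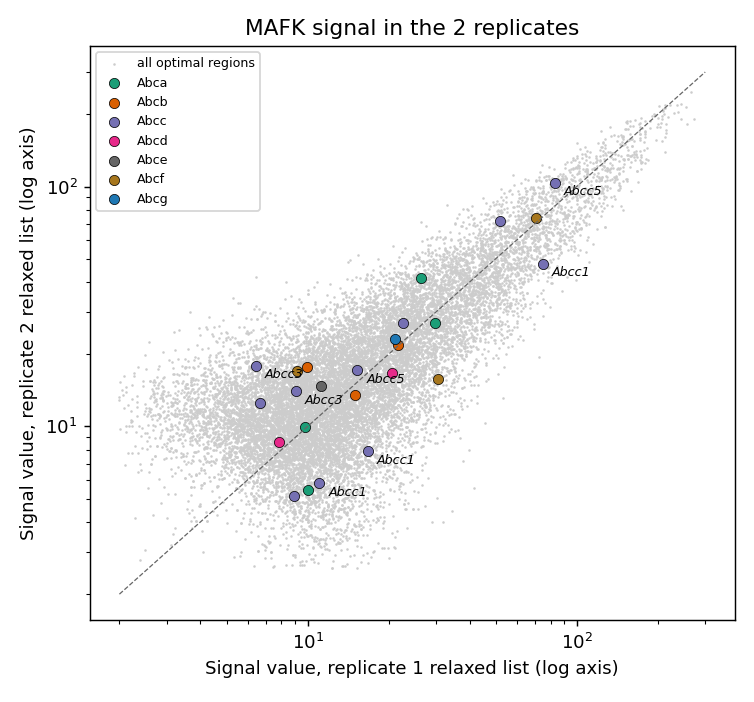
Signal value in the relaxed list of replicate 1 against that of replicate 2 (both log axes), for all optimal regions (grey) and the 25 ABC regions (coloured by subfamily); the dashed line marks equal values. The labelled Abcc1 regions lie below the line and the Abcc3 regions above it.

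The remaining 33 ABC genes had no summit within 10 kb, and 18 ABC genes had none within 50 kb. Summits lay within 10 kb of 34.0% of ABC genes and 26.9% of all protein-coding genes. Within 50 kb the shares were 64.0% and 59.3%, so lacking a summit was not particular to ABC genes. The closest outside the limit were Abca7 at 10839 bp, Abca4 at 13571 bp, Abcb10 at 16691 bp, Abca13 at 17581 bp and Abcd3 at 26505 bp, while Abcf2 at 9897 bp and Abcb11 at 8187 bp were just inside.

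Genes that work with ABC proteins were counted for context. Of 14 sterol sensing and efflux genes, 4 had a summit (28.6%, background 26.9%), led by the nuclear receptor gene Rxra (signal 249) and the sterol regulator gene Srebf2 (129.9), with Pltp (13.3) and Srebf1 (10.6) far lower. Of 14 partner genes of ABC proteins, 7 had one (50%, background 26.9%). Their median strongest signal was 19.99, below the 31.3 of all protein-coding genes with a summit. The ferrochelatase gene Fech was highest (88.6), and Mmachc, which acts on vitamin B12 after Abcd4, was at 23.3. The others were Pdia3 (38.7), Pex19 (19.99), Tapbp (19.9), Eif2s1 (17.4) and Etf1 (12.8). Of 16 drug and bile acid sensing and uptake genes, 5 had one (31.2%, background 26.9%), namely Ahr (74.2), Nr1i3 (26.3), Slc10a1 (22.7), Slc10a2 (22.5) and Nr1i2 (15.6). The ABC proteins with other symbols, Tap1, Tap2 and Cftr, had no summit within 10 kb.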

How the data were processed

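The regions near ABC genes came from lists that the authors deposited on mm10, for 2 replicates. The names of the aligner and region caller were not given in the sources used here. According to text notes that the authors deposited beside the lists, a first run made relaxed lists for each replicate and the pool, and from these the optimal and conservative lists; a second run made ranked and thresholded lists for each replicate and a combined list. The signal value and the scaled IDR score are scores that the authors deposited without a stated scale, used only to describe and rank regions within a list. The −log10 q-value column was deposited too and was not used to select regions. Replicate values are the strongest region of a relaxed list that overlaps by at least 1 bp. Values from separate lists are set side by side, and the step from the optimal list to the replicates' thresholded lists crosses both runs.

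Summits were taken from the deposited offsets and TSSs from GENCODE vM21, on the assembled chromosomes; 29 other regions were left out. Sequences came from GRCm38, the assembly of mm10, and each element was looked for on either strand, up to 50 bp to each side of a summit. Shares have 95% Wilson intervals, which cover counting error only. The distance and element searches were tested on simulated data. The work used Python 3.11.15, pandas 2.3.3, scipy 1.17.1 and pysam 0.24.0. The members and lists were chosen with earlier results of these data known. All ABC genes with a summit are named with their signal, the 8 of highest signal with coordinates and rank and the top 6 of these with sequence, and the 5 closest genes without one with their distance. Other genes without a summit were named by function after their values were seen. Proximity alone does not make a gene a target, and expression was not measured. The alternatives were the replicates' lists, the conservative list, the strongest 50% of regions, regions in both replicates' lists, 2 and 50 kb, 5′ ends alone, other overlaps and other windows.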

Additional observations from a re-analysis of the deposited data

How the results depend on the processing

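The 17 ABC genes with a summit within 10 kb became 10 to 12 with 1 replicate's list (background 13.7% and 17.4%), 11 with the strongest 50% of regions (15.1%), 10 with regions in both lists (11.2%), 8 within 2 kb (12%), 32 within 50 kb (59.3%) and 10 by 5′ ends alone (20.1%). The conservative list gave 18, the combined list 17, own nearest TSS 16 and the gene record 21. The last 3 were chosen after seeing the data.

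By subfamily, 1 replicate's list left 0 Abce, 1 Abcf and 0 Abcg genes, and regions in both lists left the same numbers. The conservative list gave 2 Abcd genes, and the strongest 50% gave 0 Abce and 1 Abcf. A reach of 2 kb gave 0 Abca, 3 Abcc, 1 Abcf and 0 Abcg genes, and 50 kb gave 8 Abca, 6 Abcb, 2 Abcd and 5 Abcg. The 5′ ends gave 1 Abcb, 0 Abce and 0 Abcg, own nearest TSS 1 Abcf, the gene record 6 Abca, and the combined list 2 Abcd and 0 Abce.

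The median strongest signal of 43.7 (31.3 for all genes) became 27.1 to 27.7 with 1 replicate's list (all genes 24.9 and 27.3), 39.3 (32.5) with the conservative list, 53.7 (51.8) with the strongest 50%, 31.3 (27.5) within 2 kb, 41.5 (40.8) within 50 kb and 39.5 (29.5) by 5′ ends. Over regions in both lists it was 61.6, below the 65 of all genes. All 25 regions overlapped both relaxed lists, from which the optimal list was made, and 12 overlapped both thresholded ones. The composite element was in 5 to 6 regions and the ARE core in 8 to 9 of the 14 regions of each replicate's list. No share over all regions of these lists was available. Among all optimal regions in both lists, 41.0% held the composite element and 73.1% the ARE core. The causes of these changes were not tested. No paired analysis was possible because there is 1 group. With 2 replicates and no control regions or reads in the files used here, depth and binding that varies between cultures cannot be assessed.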

Other observations

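Some ABC genes without a summit near a start held regions farther inside the gene. Counting a summit anywhere in the gene record as well brought in 4 more genes, to 21 of 50, beside 34% of all protein-coding genes. Abca13, a gene of 492 kb, had 5 summits in its record, the strongest with a signal of 38.1. Abca4, the retinoid transporter gene of photoreceptors, had 2 (strongest 32.1), Abca5 had 1 (31.7) and Abcb10, a transporter of the inner mitochondrial membrane, had 1 (18.5). This count was chosen after the data were seen. ABC genes were long, with a median of 64.6 kb against 17.4 kb over all protein-coding genes, and those with and without a summit near a start had medians of 63.7 and 65.5 kb.

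Abcd2, which encodes a peroxisomal fatty acid transporter, was near a region of the conservative list (signal 16.2) and not of the optimal list, in which its nearest summit was 123230 bp away. The strongest relaxed regions near Abcd2 had values of 5.87 and 8.25 in replicates 1 and 2.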
